A study of Mus musculus with 16 samples.

Results

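Kidney transcriptomes of mice lacking the insulin receptor-related receptor (IRR) were compared with those of wild-type mice while both drank plain water. The comparison used 8 of the 16 libraries of the series, namely the 4 IRR(-/-) and the 4 wild-type water libraries, chosen by genotype and drink in their titles. All 8 mice were female C57BL/6 animals aged 2 to 3 months that had fasted for 12 h, with water freely available. RNA came from a 3 mm slice cut horizontally from the middle of the kidney, and each library was 1 animal. The other 8 mice, 4 of each genotype, drank 250 mM sodium bicarbonate at pH 8.5 for 7 days and served here as a second set of animals in which the same genotype difference could be read. The labels do not say which part of the gene was removed, how often the line was crossed to the control strain, or whether the controls were littermates. The values were RPKM (reads per kilobase of transcript, scaled to library size) for 13430 genes, of which 12943 were tested and 487 were set aside as too low. The p-values of genes rest on the spread between the 4 animals of a group, pooled over all 16 libraries, so the bicarbonate mice enter them.

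IRR, encoded by Insrr, is a receptor tyrosine kinase related to the insulin and IGF1 receptors that is activated by alkaline extracellular pH rather than by a hormone. In the kidney it is found in type B intercalated cells of the collecting duct, which secrete bicarbonate into the urine through pendrin, the chloride/bicarbonate exchanger encoded by Slc26a4. Type A intercalated cells do the opposite and secrete acid, while principal cells take up sodium and water. The question the comparison addresses is which transcripts differ when the receptor is missing and no alkali load is given.

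Kidney identity was as labelled: transcripts of the thick ascending limb (Slc12a1, 344 to 430.2 RPKM over the wild-type libraries and 315 to 398 over the knockout libraries), of the collecting duct (Aqp2, 94.2 to 157 and 104 to 116) and of the proximal tubule (Slc34a1, 976 to 1264 and 794 to 924) were present in all 8. Spearman correlations over genes were 0.974 to 0.980 between libraries of 1 genotype and 0.956 to 0.964 between genotypes. Summed RPKM differed by genotype, from 2730076 to 2927108 in the knockout libraries and from 1488084 to 1602927 in the wild-type libraries (exact permutation p = 0.0286, two-sided, the smallest that 4 against 4 allows). The 13 mitochondrially encoded genes held 83.3 to 84.9% of that sum in the knockout and 70.5 to 74.2% in wild type (exact permutation p = 0.0286). Much of the sum in both genotypes came from a single gene with a short transcript, mt-Atp8, whose values are given below. Differences also moved with transcript length: the median log2 difference was 0.75 over the 34 genes up to 500 nt and 0.34 over the 466 genes from 501 to 1000 nt, against -0.05 over all genes. Some counts below are therefore also given after removal of each library's trend on transcript length and GC content. Others moved with it too. Antioxidant enzymes had 5 higher and 3 lower, proximal tubule markers 5 and 2 and injury markers 1 and 2. Genes beside Insrr had 4 and 4, and fatty acid oxidation and insulin receptor signalling 4 and 0 each. Sterol regulation and immediate early genes had 1 and 1 each, and IGF ligands and binding proteins 0 and 0. Igfbp3, Fgb, Slc6a20b and Hsp90aa1 were among the genes that lost their calls. That removal left 2459 genes called (19%), 1307 higher (10.1%) and 1152 lower (8.9%), and quantile normalization left 2756 (21.3%), 1368 higher (10.6%) and 1388 lower (10.7%). The part these library-wide differences play in single genes was not tested.

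Between genotypes, 2833 of 12943 genes passed the threshold (limma, Benjamini-Hochberg adjusted p under 0.05), which is 21.9% of all genes tested. Of these, 1303 were higher in the knockout (10.1% of genes tested) and 1530 were lower (11.8%). These shares are the background against which every gene list below is read. Most differences were small: 1793 of the called genes differed by up to 1.5-fold, 1040 by more than 1.5-fold and 336 by more than 2-fold, and among the last 214 were higher and 122 lower. The direction split depended on scaling. Among called genes 46.0% were higher in the knockout with the values as deposited, against 27.5% when each library was scaled to the same sum over genes that are not mitochondrially encoded (937 higher, 7.24% of genes tested, and 2473 lower, 19.1%, 26.3% in all), a scaling that moved the median log2 difference of all genes to -0.14. Counts in some lists described below moved with it: insulin receptor signalling had 1 higher and 4 lower, heat shock proteins 1 and 7, class I and interferon genes 1 and 4, the thick ascending limb 1 and 3, fatty acid oxidation 2 and 2, fatty acid synthesis 0 and 4, sterol regulation, phosphate and vitamin D, and stroma 0 and 2 each, and proximal bicarbonate uptake 1 and 0. The groups did not overlap for 3075 genes (23.8%), higher in the knockout for 1393 (10.8%) and lower for 1682 (13%), and 4436 genes (34.3%) had an unadjusted p under 0.05.

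**Figure D1:**
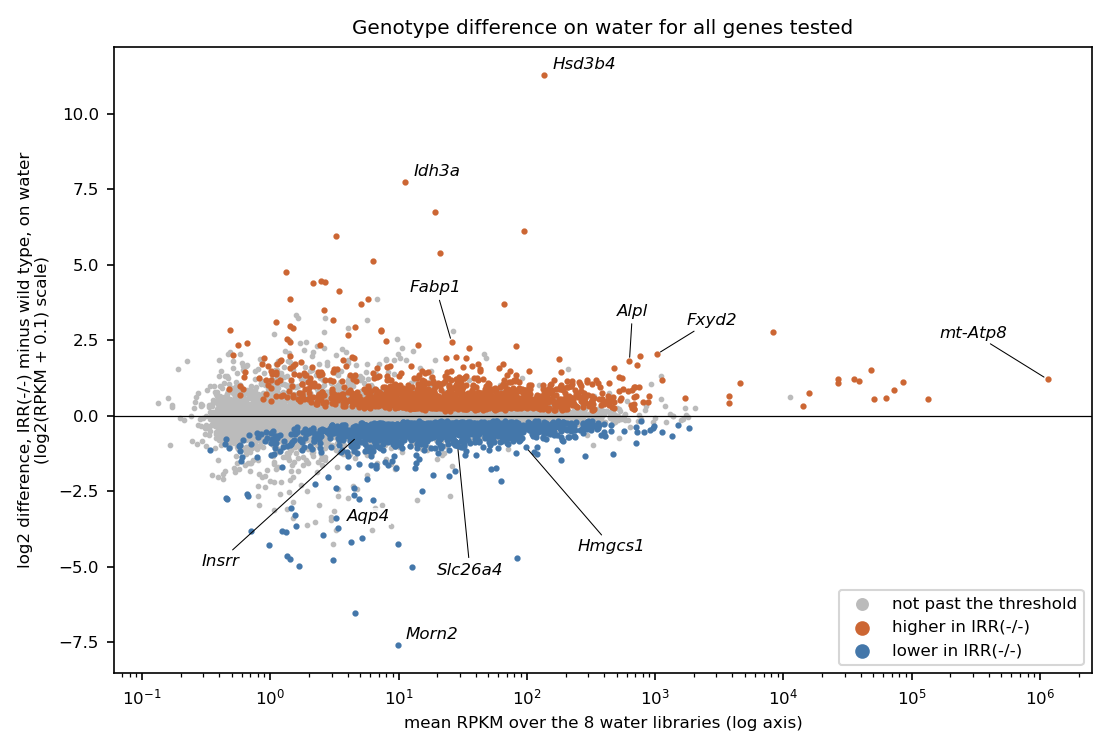
Log2 difference between IRR(-/-) and wild-type kidneys on water (vertical axis, log2(RPKM + 0.1) scale) against the mean RPKM of the 8 water libraries (horizontal log axis), with 1 point per gene tested. Orange and blue points passed the threshold as higher (1303) or lower (1530), grey points did not, and named genes are described in the text.

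Insrr itself was lower but present in the knockout libraries. Its level was 6.73, 4.82, 6.34 and 5.83 RPKM in the wild-type libraries 1 to 4 and 3.43, 3.62, 4.11 and 3.34 RPKM in the knockout libraries 1 to 4. The groups did not overlap, and the means of 5.93 ± 0.824 and 3.62 ± 0.343 RPKM (SD, n = 4 each) gave a log2 difference of -0.69 ± 0.13 (SE, adjusted p = 0.00180), a 1.64-fold lower level. The gene lies on chromosome 3 from 87796951 to 87816101 (GRCm38, plus strand). Since the removed part of the gene is not stated, these values check the direction of the label and not the loss of the protein.

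The closest relatives of IRR did not pass the threshold. Insr, the insulin receptor, was at 13 to 16.3 RPKM in wild type and 16 to 18.8 in the knockout (log2 difference 0.23 ± 0.09, SE, adjusted p = 0.0679), and it passed without wild-type replicate 3 and under 2 of the other scalings. For Igf1r, the IGF1 receptor, the log2 difference was 0.19 ± 0.09 (adjusted p = 0.142), and for the adaptor genes Irs1 and Irs2 it was 0.14 ± 0.12 and 0.35 ± 0.18 (adjusted p = 0.457 and 0.181). Of 25 tested genes of insulin receptor signalling, 3 were higher, 0 lower and 22 did not pass, with a median log2 difference of 0.05 against -0.05 over all genes.

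The members that passed act downstream. Tsc2, the subunit of the complex that restrains mTORC1, was at 1.72, 0.915, 1.34 and 2.45 RPKM in the wild-type libraries and 5.72, 2.31, 6.51 and 5.30 RPKM in the knockout libraries. Knockout replicate 2, at 2.31, lay below wild-type replicate 4, at 2.45, so the groups overlapped in that pair, and the log2 difference was 1.55 ± 0.41 (SE, adjusted p = 0.0131). Mapk3, which encodes a kinase of the MAP kinase cascade, was higher by 0.30 on the log2 scale (adjusted p = 0.00774). With equal sums over genes that are not mitochondrially encoded this call was lost, at 0.20. Among 9 tested genes of IGF ligands and binding proteins, Igfbp3, a carrier of circulating IGF, passed as lower at -0.33 ± 0.11 (adjusted p = 0.0460), and it lost its call without wild-type replicates 2, 3 or 4 (-0.31, -0.31 and -0.27) and without knockout replicates 1, 2 or 3 (-0.34, -0.27 and -0.33).

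The pendrin transcript was lower in the knockout. Slc26a4 stood at 35.8, 46.6, 33 and 38 RPKM in the wild-type libraries and 15.8, 21.3, 21 and 19 RPKM in the knockout libraries, and each wild-type library was above each knockout library. The log2 difference was -0.99 ± 0.11 (SE, adjusted p = 2.53e-05), which is 1.99-fold lower, and it lay between -1.09 and -0.89 over all 20 alternatives tried. Of the 5 tested genes of type B cells, Insrr and Slc26a4 were lower and the other 3 did not pass. Insrr is the gene targeted in these mice, so Slc26a4 was the only call among the rest of the list. Hmx2, a homeobox gene of these cells, was at 4.92, 5.90, 4.20 and 4.38 RPKM in wild type and 3.04, 3.67, 3.68 and 3.60 RPKM in the knockout, with no overlap of the groups and a log2 difference of -0.45 ± 0.22 (adjusted p = 0.152). Slc4a8, a sodium-dependent chloride/bicarbonate exchanger, and Oxgr1, the alpha-ketoglutarate receptor, were at 0.11 ± 0.19 and 0.26 ± 0.21 (adjusted p = 0.712 and 0.420). In whole-kidney RNA, fewer type B cells and less RNA per cell cannot be told apart.

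All 6 tested type A intercalated cell genes had positive differences, with a median of 0.39, while the type B list had 2 positive and 3 negative. Of the type A genes 2 passed as higher (33.3%, against 21.9% of all genes). Aqp6, an anion-conducting aquaporin of intracellular vesicles, was at 17.4, 14.2, 17.2 and 15.8 RPKM in the wild-type libraries and 43.9, 33.6, 23.3 and 32.6 RPKM in the knockout libraries. The lowest knockout library, replicate 3, was still above the highest wild-type library, and the log2 difference was 1.01 ± 0.22 (SE, adjusted p = 0.00434). Adgrf5, an adhesion receptor also found in endothelium, was at 6.80 to 13.2 RPKM against 13.3 to 18.8 RPKM (log2 difference 0.74 ± 0.21, adjusted p = 0.0182), and lost its call without wild-type replicates 1 or 2 (0.59 and 0.59), without knockout replicate 4 (0.65) and with only the 8 water libraries in the fit. Beside it, none of the 11 tested endothelial markers passed. Kit and Dmrt2 were at 0.45 ± 0.22 and 0.34 ± 0.19 (adjusted p = 0.168 and 0.220), and Slc4a1 and Slc26a7, the basolateral exchangers AE1 and SLC26A7, at 0.02 and 0.11, with signs that changed under some alternatives.

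Genes that all intercalated cells share gave 1 call among 15 tested members (6.67%, against 21.9% of all genes), with a median log2 difference of 0.04. Foxi1, the transcription factor of intercalated cells, was at 12.8, 12.9, 10.1 and 9.76 RPKM against 15.2, 12.8, 12.1 and 19.6 RPKM (0.38 ± 0.18, adjusted p = 0.155), and Atp6v1g3, a subunit of the proton pump of these cells, at 0.38 ± 0.16 (adjusted p = 0.104), or 0.59 and called after removal of the length and GC trend. Without knockout replicate 3 the list gave 2 calls, and after removal of the length and GC trend 3, all higher.

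**Figure D2:**
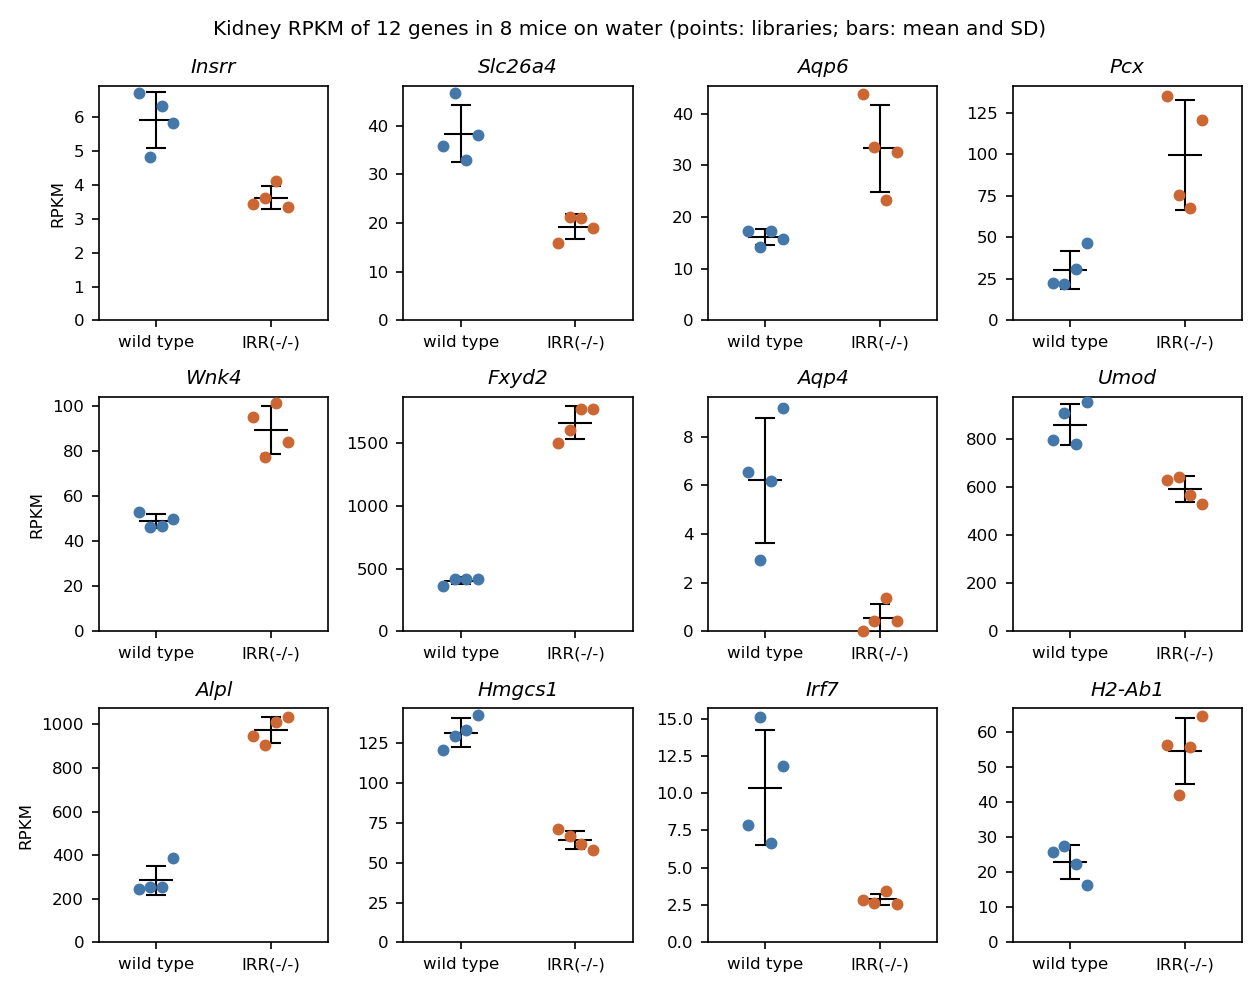
RPKM (vertical axes, each from 0) of 12 genes in the 8 water libraries, blue for wild type and orange for IRR(-/-), with the mean and SD of each group of 4. Insrr, Slc26a4, Aqp4, Umod, Hmgcs1 and Irf7 are lower and Aqp6, Pcx, Wnk4, Fxyd2, Alpl and H2-Ab1 higher in every knockout library than in every wild-type library.

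Of 10 tested genes of the sodium pump and its FXYD partners, 5 were higher, 0 lower and 5 did not pass, and 4 of the 10 had negative differences. Fxyd2 and Fxyd3 were the 2 calls that held under all 20 alternatives. Fxyd2, the gamma subunit that tunes the pump's sodium affinity along the nephron, was at 363, 419.7, 421 and 413 RPKM in wild type and 1500.3, 1603, 1768 and 1771 RPKM in the knockout. The groups were far apart, at a log2 difference of 2.04 ± 0.07 (SE, adjusted p = 1.10e-10). Fxyd3, a related subunit, was at 2.12, 1.69, 2.51 and 2.00 RPKM against 5.06, 4.06, 2.79 and 3.95 RPKM (0.88 ± 0.24, adjusted p = 0.0147). Atp1b2, a beta subunit, was higher by 0.46, a call lost without wild-type replicate 2 (0.39) and with only the 8 water libraries. Atp1b1, the main renal beta subunit, was at 1339.9 to 1794 RPKM and 1793 to 1893 RPKM (0.25 ± 0.09, adjusted p = 0.0640), and passed without wild-type replicate 4.

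The remaining calls among FXYD genes rested on low or variable values. Fxyd1 was listed at 0 in all 4 wild-type libraries and at 5.14, 0, 1.93 and 4.25 RPKM in the knockout libraries, so its values are given without a fold, and its call was lost without any 1 library except knockout replicate 2. Fxyd5 (7.54, 12.3, 5.52 and 7.32 RPKM against 14, 10.0, 18.1 and 16 RPKM) lost its call without wild-type replicates 1, 3 or 4 and without knockout replicates 1, 3 or 4, at log2 differences from 0.68 to 0.85. Without any 1 of those libraries except wild-type replicate 4, the list gave 3 calls, as it did without wild-type replicate 2. Fxyd4, a subunit of the collecting duct, was listed at 0 in knockout replicates 1 and 4, at 4.57 and 4.97 RPKM in replicates 2 and 3, and at 3.31 to 4.76 RPKM in wild type.

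Along the distal nephron, the pathway that controls the sodium chloride cotransporter was higher in part. Wnk4, the kinase at its head, was at 53, 46.5, 46.6 and 49.8 RPKM in wild type and 94.9, 77.4, 101 and 83.9 RPKM in the knockout, with no overlap (0.86 ± 0.11, SE, adjusted p = 0.000100). Klhl3, the adaptor that marks WNK kinases for degradation, was at 11.5, 11.6, 14 and 12.7 RPKM against 16.4, 15, 17.2 and 15.9 RPKM (0.38 ± 0.09, adjusted p = 0.00663). Pvalb, the calcium-binding parvalbumin of the early distal convoluted tubule, was higher by 0.59 (adjusted p = 0.00841). Of the 17 tested genes of this segment, 4 were higher, 2 lower and 11 did not pass.

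The 2 lower genes of the segment serve magnesium. Trpm7, a magnesium-permeable channel kinase, was lower by 0.47, and lost its call without wild-type replicate 3 (-0.38), with only the 8 water libraries in the fit and after removal of the length and GC trend (-0.33). Cnnm2, a magnesium transport regulator, was at -0.25 (adjusted p = 0.0490) and lost its call in 12 of 20 alternatives, among them without wild-type replicates 1, 2 or 3 and knockout replicates 1, 2 or 3, at -0.25 to -0.21. In the thick ascending limb, Umod, the uromodulin gene, was at 798, 911, 779 and 955 RPKM in wild type and 632, 645, 567 and 531 RPKM in the knockout. All 4 knockout libraries were below all wild-type libraries (-0.54 ± 0.10, SE, adjusted p = 0.00182), while Slc12a1, the cotransporter NKCC2, was at -0.15 ± 0.12 (adjusted p = 0.419). Of the 12 tested genes of this limb 1 was higher, 1 lower and 10 did not pass.

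Water and sodium transport genes of principal cells went in both directions, 2 higher and 2 lower among 14 tested. Aqp4, the basolateral water channel, was at 6.56, 2.93, 6.17 and 9.17 RPKM in wild type and 0, 0.412, 1.36 and 0.444 RPKM in the knockout, where replicate 1 was listed at 0. No knockout library reached the lowest wild-type library, and the log2 difference was -3.71 ± 0.81 (SE, adjusted p = 0.00474), or -2.20 with a pseudocount of 1. Aqp2, the vasopressin-regulated water channel, was at 121, 156, 94.2 and 157 RPKM against 104, 106, 116 and 107 RPKM (-0.26 ± 0.22, adjusted p = 0.445). Avpr2, the vasopressin receptor, was lower at 14.4, 10.7, 10.6 and 15.9 RPKM against 6.48, 5.27, 9.36 and 6.38 RPKM (-0.91, adjusted p = 0.0241), a call lost without wild-type replicates 1 or 4 and without knockout replicates 1, 2 or 4, at -0.89 to -0.79.

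Sodium channel genes of these cells were less firm. Scnn1a, the alpha subunit of the epithelial sodium channel, was higher by 0.47 (adjusted p = 0.0312) but lost its call without wild-type replicates 1 or 2 and without knockout replicates 1, 3 or 4, at 0.38 to 0.47. Nedd4l, the ubiquitin ligase that removes this channel from the membrane, was at 4.24, 4.32, 6.26 and 4.99 RPKM against 14.2, 6.44, 7.20 and 7.28 RPKM. Its log2 difference of 0.75 ± 0.21 (adjusted p = 0.0184) was 0.50 without knockout replicate 1, and its call was lost without wild-type replicates 1 (0.69) or 2 (0.70). The list gave 1 call without wild-type replicate 1 and 2 without wild-type replicate 2 or knockout replicate 1. Among 8 tested genes of medullary osmolytes, Slc6a6, the taurine transporter, was higher (50.6 to 94.9 RPKM against 102 to 121 RPKM, 0.76 ± 0.17, adjusted p = 0.00487), and Slc5a3, the inositol transporter, was lower at -0.54 ± 0.15 (adjusted p = 0.0154), a call lost after removal of the length and GC trend (-0.42). Gpcpd1, of glycerophosphocholine breakdown, was the other lower member at -0.45, a call lost without wild-type replicate 2 (-0.37) and without knockout replicates 3 (-0.43) or 4 (-0.38), and after removal of the length and GC trend it was -0.23, when the list had 1 call.

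The proximal tubule makes ammonia from glutamine and glucose from the remaining carbon, and its genes changed singly. Fbp1, fructose-1,6-bisphosphatase, was at 628, 600.2, 669 and 780.2 RPKM in wild type and 504, 442, 471 and 482 RPKM in the knockout, without overlap (-0.49 ± 0.10, SE, adjusted p = 0.00345). In the other direction Pcx, pyruvate carboxylase, was at 22.8, 21.8, 30.9 and 46.6 RPKM in wild type and 135, 75.6, 67.7 and 121 RPKM in the knockout, so its lowest knockout library was above its highest wild-type library (1.71 ± 0.30, adjusted p = 0.00103). Of the 12 tested genes of this list 1 was higher, 2 were lower and 9 did not pass, among the last Glul, glutamine synthetase, at 0.50 ± 0.19 (adjusted p = 0.0670), which passed without wild-type replicate 4 and with only the 8 water libraries.

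Genes of proximal bicarbonate uptake were little different: 2 of 6 tested were higher, the scaffold genes Slc9a3r1 and Slc9a3r2 (NHERF1 and NHERF2), by 0.29 and 0.38 (adjusted p = 0.0174 and 0.0199). Slc9a3r1 lost its call without wild-type replicate 3 (0.24) and with equal sums over genes that are not mitochondrially encoded (0.19), and Slc9a3r2 without wild-type replicates 1 or 2 or knockout replicate 4 (0.35, 0.34 and 0.31). Among 24 tested markers of proximal tubule cells 5 were higher and 3 lower, a split that was 2 and 5 with equal sums over genes that are not mitochondrially encoded and 1 and 4 under quantile normalization. Slc22a8, the organic anion transporter OAT3, was at 196, 201, 187 and 189 RPKM in wild type and 262, 261, 259 and 234 RPKM in the knockout (0.39 ± 0.05, SE, adjusted p = 0.000146). Lower were Slc5a2, the glucose transporter SGLT2, at 209.6 to 264 RPKM against 153 to 206 RPKM (-0.44 ± 0.11, adjusted p = 0.00948), and Slc34a1, the phosphate transporter NaPi-2a, at -0.34 (adjusted p = 0.0149). The other 5, Slc22a6, Slc22a12, Slc22a2 and Slc13a3 (higher) and Slc6a20b (lower), lost their calls without wild-type replicate 2 among other libraries, and the count of 8 was 3 to 5 without wild-type replicates 1 or 2 or knockout replicates 1, 2 or 3. Alpl, the tissue-nonspecific alkaline phosphatase of the brush border, was outside these lists and was named after its values were seen: it stood at 247, 253, 256 and 386 RPKM in wild type and 945, 905, 1013 and 1035 RPKM in the knockout (1.80 ± 0.23, adjusted p = 8.40e-05).

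**Figure D3:**
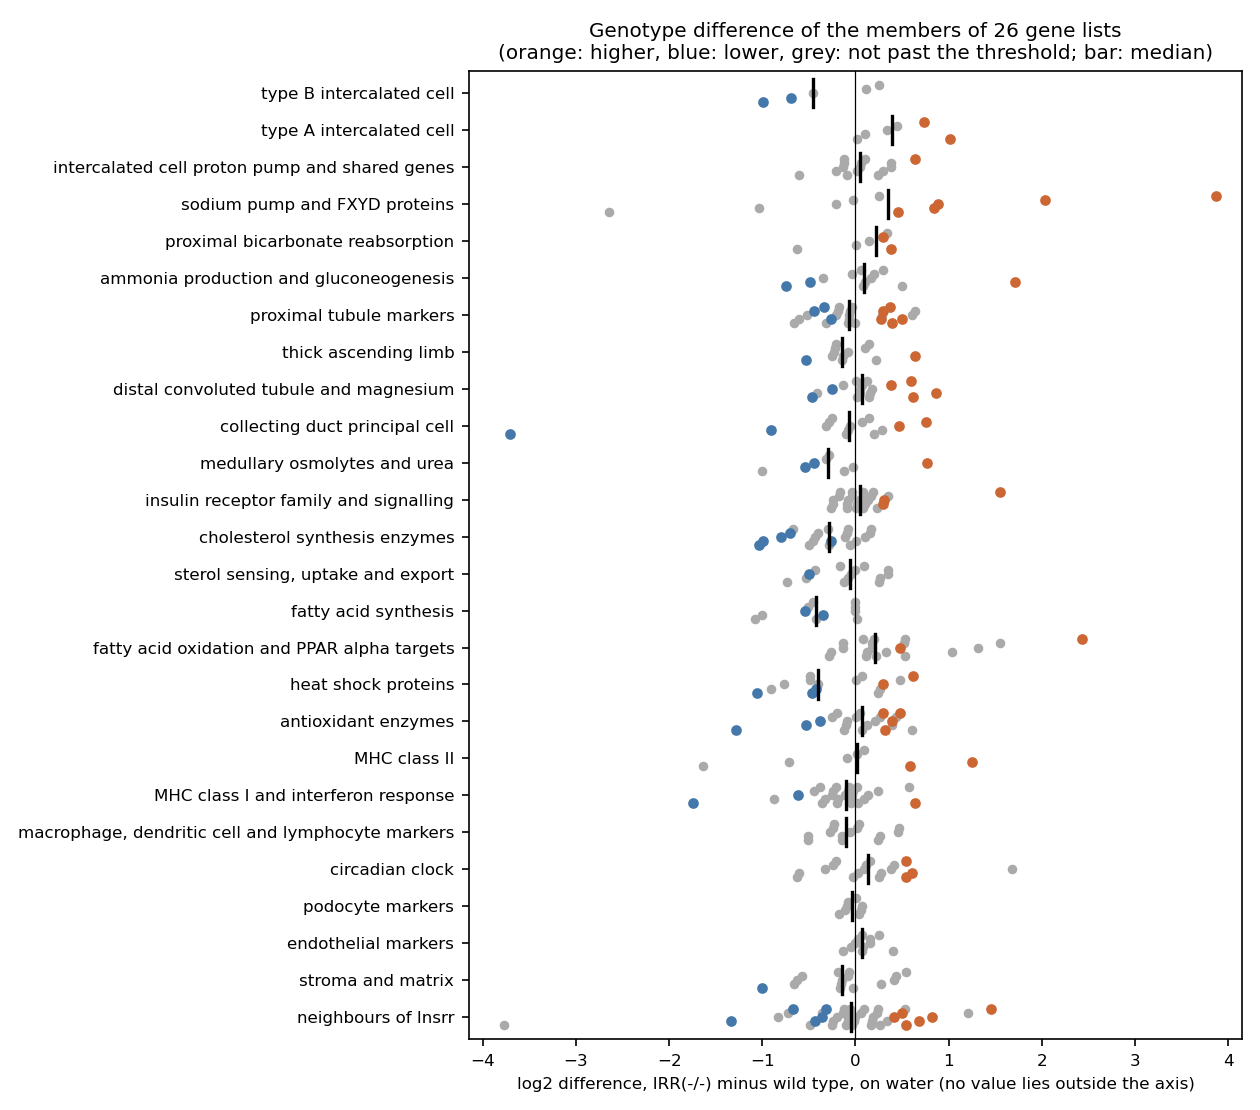
Log2 difference between IRR(-/-) and wild type on water (horizontal axis) for each tested member of 26 gene lists (rows), with a black bar at each list's median. Orange and blue points passed the threshold as higher or lower and grey points did not. Members of most lists lie on both sides of 0, while the 6 type A intercalated cell genes lie to the right of it and 10 of 11 fatty acid synthesis genes to the left.

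Enzymes that make cholesterol were lower where they differed. Hmgcs1, the cytosolic HMG-CoA synthase that starts the mevalonate pathway, is a textbook target of the sterol-regulated factor SREBP2, and its promoter is shown because it had the smallest p of this list. The bases from 250 before to 50 after its transcription start (RefSeq, GRCm38.p6, chr13:119690101-119690400, plus strand) are given with the letters of the sterol element TCACNCCAC in capitals.
Hmgcs1: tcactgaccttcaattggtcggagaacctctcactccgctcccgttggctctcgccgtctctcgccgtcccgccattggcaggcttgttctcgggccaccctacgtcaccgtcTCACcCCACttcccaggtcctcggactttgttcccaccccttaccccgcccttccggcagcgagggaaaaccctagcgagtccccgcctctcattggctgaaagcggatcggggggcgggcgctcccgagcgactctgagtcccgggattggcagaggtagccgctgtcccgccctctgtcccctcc
The match begins 137 bases before the start, and searched on both strands this motif occurs in 408 of 32851 promoters of the same length (1.24%). Of the 20 genes of the list 15 had a promoter in that table, and Hmgcs1 was the only one of the 15 with these letters, which says nothing about binding of the factor.

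Hmgcs1 was at 121, 129, 133 and 143 RPKM in wild type and 71.1, 66.5, 61.4 and 57.9 RPKM in the knockout. Each knockout library was below each wild-type library, by 2.05-fold on the means (-1.03 ± 0.09, SE, adjusted p = 3.14e-06). Fdps, farnesyl diphosphate synthase, was at 15, 12.7, 9.30 and 12.3 RPKM against 6.20, 7.38, 8.07 and 3.57 RPKM (-1.0 ± 0.26, adjusted p = 0.0142). Msmo1, a methylsterol oxidase, was at 17.4, 22.7, 14.6 and 13.5 RPKM against 10.8, 9.31, 12 and 9.05 RPKM (-0.70 ± 0.16, adjusted p = 0.00485). These 3 were called under all 20 alternatives.

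Of 20 tested cholesterol enzymes, 5 were lower and 0 higher (25% called, against 21.9% of all genes), 16 had a negative difference and the median was -0.29. Pmvk, phosphomevalonate kinase, at -0.80, lost its call without wild-type replicates 1, 2 or 4 or knockout replicates 1 or 4, and the list gave 3 calls without wild-type replicates 1 or 2 or knockout replicates 1 or 4. Insig2, a sterol-sensing retention factor, was the 1 call among 14 tested sterol regulators, at 23.7, 25.8, 23.6 and 26.6 RPKM against 18, 16, 19.1 and 17.3 RPKM (-0.50 ± 0.09, adjusted p = 0.000762). Without knockout replicate 1 or 2 the list had 2 calls.

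In fatty acid synthesis the share of genes called was not above that of all genes. Of 11 tested genes 2 were lower and 0 higher (18.2% called, against 21.9% of all genes), and 10 had a negative difference, with a median of -0.43. Me1, the cytosolic malic enzyme that supplies NADPH, was at 201, 193, 183 and 185 RPKM in wild type and 133, 128, 124 and 138 RPKM in the knockout (-0.54 ± 0.07, SE, adjusted p = 4.55e-05). Acly, ATP citrate lyase, was at 44.9, 48.2, 43.7 and 39.8 RPKM against 36.4, 33.5, 33.6 and 35.4 RPKM (-0.34 ± 0.08, adjusted p = 0.00745). Fasn, fatty acid synthase, varied among animals, at 36.9, 13.6, 8.54 and 9.68 RPKM in wild type and 5.05, 6.65, 10.7 and 7.00 RPKM in the knockout, and did not pass (-1.0 ± 0.52, adjusted p = 0.189). Fat cells carry the same enzymes, and of their markers none of 5 tested passed, all 5 had negative differences, and their summed level was 89.96 to 301 RPKM in the knockout and 100.2 to 621 RPKM in wild type. Their part in the lipid genes was not tested.

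Genes of fatty acid oxidation and PPAR alpha targets were 2 higher, 0 lower and 18 not passing of 20 tested, with 16 positive differences and a median of 0.21. Fabp1, the liver fatty acid binding protein, was at 2.59, 4.23, 14.4 and 14.4 RPKM in wild type and 82.5, 23.7, 37.3 and 28.1 RPKM in the knockout, without overlap (2.43 ± 0.55, SE, adjusted p = 0.00590). Cpt2, a carnitine palmitoyltransferase of mitochondria, was higher by 0.48 but lost its call without wild-type replicates 1 (0.41) or 2 (0.43) and without knockout replicates 1 (0.42) or 4 (0.46).

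The wild-type animals fell into 2 levels for a pair of these genes. Cyp4a14, a fatty acid omega-hydroxylase, was at 289, 275, 1127 and 1313 RPKM in wild-type replicates 1 to 4 and 1807, 1527, 1367 and 1202 RPKM in the knockout, and Cyp4a10, of the same family, at 296, 284, 1078 and 1081 RPKM against 1394, 1138, 948 and 1163 RPKM. Replicates 1 and 2 of wild type were low for both genes, while replicates 3 and 4 lay within or near the knockout range. The differences of 1.32 and 1.04 did not pass (adjusted p = 0.0501 and 0.0740), and both passed without wild-type replicate 3 or without wild-type replicate 4. Cyp4a14 also passed under 4 other settings. The list gave 7 calls without either of those libraries and 1 without wild-type replicate 1 or knockout replicate 1 or 4.

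Mitochondrial transcripts were higher in the knockout as deposited. All 13 mitochondrially encoded genes passed as higher, with log2 differences from 0.55 (mt-Nd4l) to 2.76 (mt-Nd3). mt-Atp8, a subunit of ATP synthase on a transcript of 204 nt, had the highest level, at 679224, 726514, 726389.5 and 640701 RPKM in wild type and 1595768, 1660736, 1490019 and 1644858 RPKM in the knockout (1.21 ± 0.06, SE, adjusted p = 1.85e-08). mt-Nd3, a subunit of complex I, was at 2925, 2739.7, 2108 and 1142 RPKM in wild type and 17568, 13046, 12600.3 and 14251 RPKM in the knockout (2.76 ± 0.29, SE, adjusted p = 1.38e-05), and mt-Nd6, of the same complex, at 22003, 26292, 29149.9 and 23827 RPKM against 68313, 75721, 75473 and 65924 RPKM (1.5 ± 0.08, adjusted p = 1.65e-08). After removal of the length and GC trend 11 were higher and 1 lower, and mt-Atp8 and mt-Nd4l, at -0.31 and -0.59, had changed sign. Under quantile normalization, which forces all libraries to 1 distribution and so compresses the highest values, 2 were higher and 1 lower, and mt-Nd6 was at 0.56.

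Nuclear genes of the respiratory chain were called in 72.2% of the members of complex I and 66.7% of those of complexes II to V, against 21.9% of all genes. Of 36 tested subunits of complex I 22 were higher and 4 lower, and of 39 of complexes II to V 21 were higher and 5 lower, with medians of 0.39 and 0.43. These transcripts are short (median 1026 and 1231 nt, against 3377 nt over all genes), and after removal of the length and GC trend the counts were 18 higher and 6 lower, and 20 higher and 8 lower, with medians of 0.18 and 0.21. Ndufa12, a complex I subunit, was at 202, 185, 166 and 194 RPKM in wild type and 349, 412, 413 and 429 RPKM in the knockout (1.10 ± 0.08, SE, adjusted p = 3.22e-07). Uqcrh, the hinge protein of complex III, was at 302, 249, 257 and 311 RPKM against 565, 572, 578 and 670.4 RPKM (1.10 ± 0.08, adjusted p = 4.08e-07). Lower subunits were found in the same complexes: Ndufa10 at 178, 171, 327 and 276 RPKM against 104, 105, 99.1 and 114 RPKM (-1.12 ± 0.20, adjusted p = 0.000950) and Cox7c, of complex IV, at 1005, 853, 831 and 1009.8 RPKM against 453, 506, 462 and 562 RPKM (-0.90 ± 0.09, adjusted p = 1.34e-05). Ndufv1, Sdha, Atp5a1 and Uqcrc2, of complexes I, II, V and III, were lower by 0.65, 0.62, 0.47 and 0.44 on the log2 scale. For Ndufa1, on a transcript of 419 nt, the difference of 1.13 became 0.25 once the trend was removed.

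Ribosomal protein genes differed in the same way. Among 78 tested genes of the cytosolic ribosome 43 were higher and 11 lower with a median of 0.45, and with the trend removed 37 were higher and 14 lower with a median of 0.16. Rps28, of the small subunit, was at 322, 312, 265 and 322 RPKM in wild type and 1237, 1097, 1113 and 1382 RPKM in the knockout (1.98 ± 0.12, SE, adjusted p = 6.57e-08). In the other direction Rpl35, of the large subunit, was at 314, 256, 245 and 273 RPKM against 101, 86.2, 101 and 108 RPKM (-1.46 ± 0.15, adjusted p = 8.45e-06). Ribosomal protein genes have many processed pseudogenes that share their sequence, so their values are uncertain where reads could be split. Of 77 tested genes of the mitochondrial ribosome 22 were higher and 9 lower, 14 and 10 with the trend removed, and 19 and 16 with equal sums over genes that are not mitochondrially encoded. Mrps18c, of its small subunit, was at 23.4, 25.7, 28.6 and 31.8 RPKM against 133, 165, 110.4 and 135 RPKM (2.30 ± 0.18, adjusted p = 6.67e-07).

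**Figure D4:**
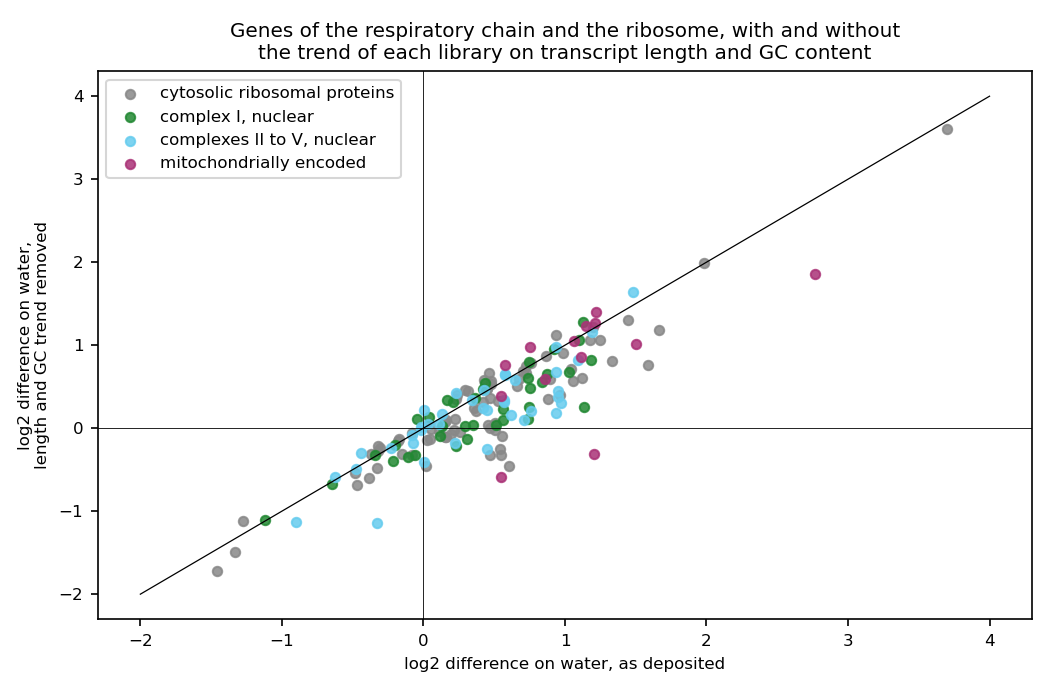
Log2 difference on water for genes of the ribosome and the respiratory chain, as deposited (horizontal axis) and after each library's trend on transcript length and GC content was removed (vertical axis), with 1 point per gene and a line of equal values. Many positive differences lie below the line, so the medians fell from 0.45 to 0.16 for cytosolic ribosomal proteins and from 0.39 to 0.18 for complex I.

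Antigen presentation and interferon genes changed in single members. H2-Ab1, the beta chain of the class II molecule I-A, was at 25.7, 27.5, 22.2 and 16.4 RPKM in wild type and 56.3, 42, 55.6 and 64.5 RPKM in the knockout, without overlap (1.26 ± 0.16, SE, adjusted p = 6.63e-05). Its partner chain H2-Aa was at 57.3, 58.7, 49.5 and 33.8 RPKM against 46.9, 44.7, 46.3 and 45.5 RPKM (-0.09 ± 0.14, adjusted p = 0.696), with a sign that turned without wild-type replicate 2 and a call without wild-type replicate 4. Cd74, the invariant chain, was at 75.3, 82.7, 68.3 and 49.7 RPKM against 114, 93.4, 98.2 and 103 RPKM (0.59 ± 0.13, adjusted p = 0.00371), and the other 5 of 7 tested class II genes did not pass. Beside these, 0 of 14 tested markers of macrophages, dendritic cells and lymphocytes passed in limma (2 at an unadjusted p under 0.05), and their summed level was 53.8 to 59.9 RPKM in the knockout and 54.6 to 74.5 RPKM in wild type. Their count was 1 without wild-type replicate 4 or knockout replicates 2 or 4.

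Of 26 tested genes of class I presentation and interferon response 1 was higher, 2 were lower and 19 had a negative difference (median -0.10). B2m, the class I light chain, was at 581, 604, 499 and 516 RPKM in wild type and 869, 804, 878 and 871 RPKM in the knockout (0.64 ± 0.09, SE, adjusted p = 0.000112), or 0.35 under quantile normalization. Irf7, a factor that drives interferon genes, was at 7.85, 15.1, 6.64 and 11.8 RPKM against 2.84, 2.64, 3.44 and 2.59 RPKM, with no overlap (-1.74 ± 0.27, adjusted p = 0.000364). Tapbp, the peptide-loading factor tapasin, named after its values were seen, was at 11.5, 16.4, 10.5 and 11.3 RPKM against 3.47, 6.74, 2.64 and 3.66 RPKM (-1.63 ± 0.32, adjusted p = 0.00213).

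Stress response genes were mixed. Hspa5, the chaperone BiP of the endoplasmic reticulum, is induced through the element CCAATN9CCACG, and its promoter is shown with the letters of that element in capitals (RefSeq, GRCm38.p6, chr2:34771840-34772139, plus strand, 250 bases before to 50 after the start).
Hspa5: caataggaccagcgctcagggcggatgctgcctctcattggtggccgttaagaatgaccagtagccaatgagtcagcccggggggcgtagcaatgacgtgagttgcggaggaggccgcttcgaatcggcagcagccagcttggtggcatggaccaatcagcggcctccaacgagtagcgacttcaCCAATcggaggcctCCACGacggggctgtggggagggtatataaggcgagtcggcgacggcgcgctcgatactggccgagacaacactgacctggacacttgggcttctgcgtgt
The match begins 65 bases before the start, and on both strands the element occurs in 39 of 32851 promoters (0.119%). Of the 14 listed genes of the unfolded protein and integrated stress response 12 had a promoter in the table, and 2 of them, Hspa5 and Creld2, held these letters.

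Hspa5 was at 318, 294, 243 and 209 RPKM in wild type and 131, 138, 175 and 204 RPKM in the knockout, with no overlap (-0.72 ± 0.18, SE, adjusted p = 0.0111). Xbp1, a transcription factor of the same response, was at 62.8, 62.2, 55.1 and 40.9 RPKM against 31.3, 26.5, 31.3 and 29 RPKM (-0.88 ± 0.12, adjusted p = 9.74e-05). These 2 were the calls among 13 tested genes of the response. Among 15 heat shock genes 2 were higher and 3 lower: the mitochondrial chaperonin pair split, with Hspe1 higher (182 to 224 RPKM against 289 to 318 RPKM, 0.62, adjusted p = 0.000287) and Hspd1 lower (262 to 279.5 RPKM against 179 to 212 RPKM, -0.46, adjusted p = 7.75e-05). The 2 genes share a head-to-head promoter. Serpinh1, the collagen chaperone, was lower by 1.06, or 0.70 without knockout replicate 2, and lost its call without wild-type replicate 2 (-0.99). Without wild-type replicate 2 the list gave 2 calls, and the other 2 members, Hsp90aa1 (-0.42) and Bag3 (0.29), lost theirs there too, at -0.37 and 0.25. Hsp90aa1 also lost its call without wild-type replicate 1 or knockout replicates 1, 2 or 3, and Bag3 without wild-type replicate 4 or knockout replicates 3 or 4.

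Antioxidant enzymes went in both directions, 4 higher and 3 lower of 21 tested, or 1 and 5 under quantile normalization. The 3 lower genes were peroxiredoxins, which reduce hydrogen peroxide. Prdx5 was at 696, 577, 625 and 742 RPKM in wild type and 270.2, 244, 285 and 282 RPKM in the knockout (-1.28 ± 0.10, SE, adjusted p = 4.79e-07), Prdx1 was lower by 0.53 and Prdx2 by 0.38 (adjusted p = 0.000152 and 0.00248). Sod3, the extracellular superoxide dismutase, was higher (75.4 to 99.7 RPKM against 101 to 142 RPKM, 0.48, adjusted p = 0.00716). Sod1, at 0.40, lost its call under quantile normalization (0.13), Cat, at 0.29, there (0.12), with equal sums over genes that are not mitochondrially encoded (0.20) and without wild-type replicates 1 or 2 or knockout replicates 1, 2 or 4, and Gpx3, at 0.31, without wild-type replicates 1 or 2 or knockout replicates 3 or 4. Under quantile normalization Gpx3 was called in the opposite direction, at -0.30.

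Injury markers gave 1 higher and 3 lower of 12 tested. Fgg, the fibrinogen gamma chain, was at 5.11, 6.43, 10.7 and 15.6 RPKM in wild type and 2.04, 1.69, 1.49 and 2.69 RPKM in the knockout (-2.10 ± 0.43, SE, adjusted p = 0.00304), and Clu, clusterin, at 229.8, 237, 197 and 179.7 RPKM against 131, 117, 159 and 132 RPKM (-0.65 ± 0.10, adjusted p = 0.000310). Lcn2, the lipocalin NGAL, was the 1 higher gene, at 4.23, 4.07, 2.96 and 4.47 RPKM against 11.9, 8.84, 10.0 and 7.75 RPKM (1.27 ± 0.37, adjusted p = 0.0250), but lost its call without wild-type replicate 3 (1.14) and without knockout replicates 1 (1.16) or 3 (1.24). Without any of those 3 the list had 2 calls, since Fgb (-1.37) lost its own there. Of the 8 libraries, Fgb kept its call only without knockout replicate 4. None of 9 tested cell cycle genes passed in limma, and none had an unadjusted p under 0.05.

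Clock genes had 3 higher and 0 lower of 18 tested. Per1 was at 16.2, 13.4, 16.7 and 16.7 RPKM in wild type and 18.6, 23.6, 24.3 and 25.9 RPKM in the knockout (0.55 ± 0.12, SE, adjusted p = 0.00368), and Hlf, a clock output factor, at 47.9, 54.7, 46.4 and 55.1 RPKM against 75.5, 70.9, 70.8 and 94.5 RPKM (0.60 ± 0.16, adjusted p = 0.0142). Cry2, at 0.54, lost its call without wild-type replicates 1, 2 or 4 or knockout replicates 1, 2 or 3. The hour at which kidneys were taken is not given in the labels, so its part was not tested. Dusp1, a MAP kinase phosphatase, was the 1 call among 15 immediate early genes, at 23.7, 36.4, 24.5 and 34 RPKM against 16.4, 16.2, 19.7 and 21.6 RPKM (-0.67 ± 0.17, adjusted p = 0.0123).

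The renin and angiotensin list had 3 lower of 7 tested. Atp6ap2, the (pro)renin receptor and a partner of the proton pump, was at 86.3, 92.1, 91.1 and 93.7 RPKM in wild type and 68.5, 61.4, 69.3 and 73.6 RPKM in the knockout (-0.41 ± 0.06, SE, adjusted p = 0.000272), or -0.22 after removal of the length and GC trend. Enpep (-0.26), an angiotensin peptidase, lost its call with that trend removed and without wild-type replicate 2 or knockout replicates 1 or 2. With the trend removed, or without knockout replicate 1, the list had 1 call. Among 10 genes of phosphate and vitamin D, Slc34a1 was the 1 call. Cyp27b1, which makes active vitamin D, was at 1.61, 1.89, 6.26 and 4.73 RPKM in wild type and 26.7, 6.19, 7.13 and 25.3 RPKM in the knockout, with a difference of 2.05 ± 0.73 that did not pass (adjusted p = 0.0589) and passed without wild-type replicate 3 or knockout replicate 2.

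Markers of other cells of the kidney showed few differences. None of 8 podocyte, 11 endothelial, 5 haemoglobin and red cell, 6 urothelial and 5 adipose markers passed (0, 1, 0, 0 and 0 at an unadjusted p under 0.05), and of the adrenal list Star was the only member tested, at 1.64 to 2.20 RPKM in the knockout and 1.56 to 2.22 RPKM in wild type. Of 15 stroma and matrix genes Col3a1, a fibrillar collagen, was lower at 11.8, 13.6, 5.32 and 5.41 RPKM against 5.51, 3.45, 2.67 and 5.32 RPKM (-1.01, adjusted p = 0.0447), and lost its call without wild-type replicates 1 (-0.84) or 2 (-0.77) and without knockout replicates 2 (-0.93) or 3 (-0.81).

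Genes beside Insrr on chromosome 3 can carry differences of the strain in which the allele was made. Of the 20 tested genes on each side 6 were higher and 5 lower (3 and 8 with equal sums over genes that are not mitochondrially encoded), 27.5% of 40, against 23.1% of the tested genes of chromosome 3 and a range over the autosomes from 18% (chromosome 16) to 26.7% (chromosome 10). Pear1, the nearest tested gene on the side of lower coordinates, was at 5.18, 7.22, 8.47 and 9.74 RPKM in wild type and 12.5, 10.8, 17.1 and 13.6 RPKM in the knockout (0.83 ± 0.18, SE, adjusted p = 0.00438). Gatb, a mitochondrial amidotransferase subunit, was at 26.9, 28.8, 23.6 and 26.5 RPKM against 16.9, 16.7, 15.8 and 16.7 RPKM (-0.67 ± 0.07, adjusted p = 1.68e-05). On the other side Naxe, an epimerase that repairs NAD(P)HX, was at 56.6, 47.2, 50.9 and 52.1 RPKM against 73.6, 73.7, 81.8 and 72 RPKM (0.54 ± 0.06, adjusted p = 2.13e-05), or 0.26 after removal of the length and GC trend. Of 6 tested genes known to differ between C57BL/6 substrains 1 was higher and 0 lower (16.7% called, against 21.9% of all genes). Their log2 differences ran from -0.04 to 2.04, and the largest did not pass. The call was Nnt, a mitochondrial transhydrogenase that C57BL/6J mice carry in a truncated form. It was at 45.6, 43.8, 40.1 and 48 RPKM in wild type and 60.6, 72.9, 72.3 and 61.3 RPKM in the knockout (0.59 ± 0.11, adjusted p = 0.00135). The substrain of each group is not given in the labels, so substrain and genotype cannot be told apart.

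Among the largest differences were genes listed at 0 in a whole group. In total 10 genes were listed at 0 in all 4 libraries of 1 genotype and at 1 RPKM or more in all 4 of the other, and 47 called genes had a 0 in at least 1 of the 8 libraries, all of them among the 336 that differed by more than 2-fold. Idh3a, the catalytic subunit of the citric acid cycle enzyme isocitrate dehydrogenase 3, was listed at 0 in all 4 wild-type libraries and at 16.1, 25.7, 14.7 and 33.5 RPKM in the knockout. Its partner subunits were present in both genotypes, Idh3b at 157 to 202 RPKM against 209 to 248 RPKM and Idh3g at 161 to 187 RPKM against 222 to 255 RPKM. Hsd3b4, a member of a steroid dehydrogenase family of near-identical genes, was listed at 0 in wild type and at 231, 365, 374 and 115 RPKM in the knockout. Conversely, Morn2 and Fam133b were at 27, 13.9, 19.6 and 18.1 RPKM and 9.97, 8.70, 7.56 and 10.6 RPKM in wild type and listed at 0 in all 4 knockout libraries. A gene with a near-copy differed without it: Eno1b was at 3.13, 2.85, 4.28 and 1.11 RPKM against 185, 168, 170.4 and 224 RPKM, while Eno1, the enolase gene whose sequence it shares, was at 359, 351, 384 and 487 RPKM against 417, 315, 315 and 403 RPKM. The 12 largest differences in each direction also held Krcc1 (1.27, 0.380, 2.42 and 0.422 RPKM against 37.1, 44.9, 33.4 and 46.8 RPKM), Hsd17b14 (0 to 1.20 RPKM against 7.50 to 19 RPKM), Zfp1, Smco4 and Tpm3-rs7 on the higher side, and on the lower side Hook2 (7.81, 6.08, 9.06 and 7.65 RPKM against 0, 1.97, 0 and 1.39 RPKM), Ankrd49, Rsc1a1, Zfp52, Ltbp3, Ube3a, Rnf40, Polr2f and the histone genes Hist1h2ap and Hist2h2aa1. Each of the lower ones was listed at 0 in 2 to 4 knockout libraries, and Smco4, Hist2h2aa1, Polr2f and Zfp52 lost their calls without single libraries. A value of 0 can be a failed estimate, and the submitters' notes name the builds GRCm39 and mm10 without saying which libraries used which, so a difference in annotation and one in the animals cannot be told apart for these genes.

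Other large differences were free of zeros and were called under all 20 alternatives, and were named after their values were seen. Teddm2 was at 0.582, 0.588, 0.702 and 0.680 RPKM in wild type and 9.41, 8.90, 11.3 and 8.64 RPKM in the knockout (3.71 ± 0.20, SE, adjusted p = 1.65e-08), and S100a6, the calcium-binding calcyclin, at 2.99, 2.10, 1.78 and 0.701 RPKM against 13.1, 10.2, 14.9 and 12.1 RPKM (2.81 ± 0.45, adjusted p = 0.000475). Ldhb, the heart-type lactate dehydrogenase subunit, was at 15.8, 11.8, 7.14 and 12 RPKM against 99.7, 32.6, 37.3 and 67.3 RPKM (2.24 ± 0.32, adjusted p = 0.000220). Acp2, lysosomal acid phosphatase, was at 2.73, 4.57, 3.99 and 5.13 RPKM against 12.3, 22.6, 13.6 and 47.5 RPKM (2.34 ± 0.37, adjusted p = 0.000482). On the lower side Eif5, a translation initiation factor, was at 27.8, 21.6, 27.7 and 26 RPKM in wild type and 4.29, 3.34, 5.35 and 5.21 RPKM in the knockout (-2.50 ± 0.27, adjusted p = 1.90e-05). Tkfc, the triokinase of fructose breakdown, was at 81.6, 92.3, 104 and 131 RPKM against 11, 23.2, 30.4 and 32.3 RPKM (-2.16 ± 0.32, adjusted p = 0.000249), and Spint2, a serine protease inhibitor of epithelia, at 96.5, 78.8, 83.2 and 93.1 RPKM against 32.7, 20.2, 32.3 and 23.6 RPKM (-1.72 ± 0.18, adjusted p = 1.03e-05). All 7 genes had groups that did not overlap.

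The mice on bicarbonate gave a second reading of the genotype difference. In the fit used above these animals entered the variance but not the differences on water. For this each drink was fitted on its own 8 libraries, so that the fits shared no library. On water 2328 genes were called (18%), 1108 higher (8.56%) and 1220 lower (9.43%), and on bicarbonate 2049 (15.8%), 995 higher (7.69%) and 1054 lower (8.14%). Both fits called 1150 genes in the same direction, which is 49.4% of the water calls and 56.1% of the bicarbonate calls, and 2 genes, Gys2 and Zfp451, in opposite directions. Of the water calls 95.5% had the same sign on bicarbonate, against 73.2% of all genes. Over the 12943 genes the differences on both drinks had a Pearson correlation of 0.62 and a Spearman correlation of 0.58, as a description, since genes are not independent and any difference in processing between genotypes would be shared. Over the water calls the median ratio of the bicarbonate to the water difference was 0.735. These genes were chosen by their water difference, which by itself can lower the ratio, so it does not measure a smaller difference on bicarbonate.

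**Figure D5:**
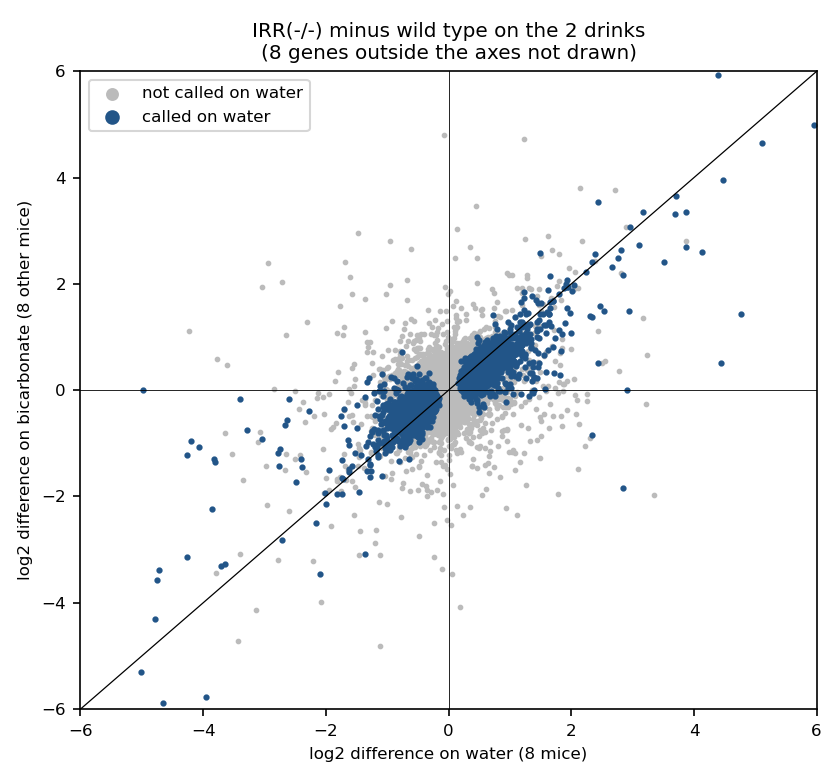
Log2 difference between IRR(-/-) and wild type on water (horizontal axis, 8 mice) and on bicarbonate (vertical axis, 8 other mice), with 1 point per gene and a line of equal values. Blue points are the 2833 genes called on water in the fit of all 16 libraries, most of which have the same sign on both axes, and 8 genes beyond the axis limit of 6 are not drawn.

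Some of the genes above were also called in the second set, and several groups were not alike there. On bicarbonate the log2 difference was -1.07 for Slc26a4, 1.98 for Fxyd2, 0.74 for Wnk4, -0.41 for Umod, -3.31 for Aqp4, -1.10 for Hmgcs1, -0.40 for Me1, 1.81 for Alpl and 1.02 for H2-Ab1, all past the threshold there (limma, all 16 libraries, 2381 genes called, 18.4%, with 1169 higher, 9.03%, and 1212 lower, 9.36%). Named members that were not called on bicarbonate included these 5. Aqp6 was at 0.27 (adjusted p = 0.428), Pcx at 0.33 (0.493), Fabp1 at 0.52 (0.565), Hspa5 at -0.31 (0.269) and Acp2 at -0.85 (0.133). The test of the difference between drinks did not pass for any of these 5, with adjusted p from 0.0844 to 0.695.

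Group values also differed between the drinks, with no test of those differences made, beside a median over all genes of -0.02 on bicarbonate. The type A intercalated cell list had 0 calls and a median of -0.02 there, against 2 calls and 0.39 on water, and Dmrt2, Slc4a1 and Slc26a7 were at -0.20, -0.45 and -0.19. Cholesterol enzymes had 1 higher and 1 lower with a median of -0.04, and Msmo1 was at -0.34 (adjusted p = 0.145). Fatty acid synthesis had 0 higher and 2 lower with a median of -0.06, and fatty acid oxidation 0 higher and 3 lower with a median of -0.12. Cytosolic ribosomal proteins had 20 higher and 15 lower (median 0.11) and those of the mitochondrial ribosome 17 and 15 (median 0.03). For complex I and complexes II to V the counts were 17 higher and 5 lower, and 15 and 5. Proximal tubule markers had 1 higher and 1 lower, where Slc22a12 was at -0.05 and Slc22a6 at 0.02, and the genes beside Insrr had 3 and 3. The sodium pump list again had 5 higher and 0 lower, with a median of 0.41.

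Over all genes that interaction test called 2 genes (0.0155%), with 1060 (8.19%) at an unadjusted p under 0.05, by limma. Sh3bp5l had a genotype difference of -0.29 on water and 1.06 on bicarbonate, a log2 interaction of 1.35 ± 0.20 (SE, adjusted p = 0.0471). Gm5096, listed at 0 in 12 of 16 libraries, is given without a fold. The count of 2 became 0 with a pseudocount of 0.01 or a stricter filter, and 1 to 5 when single libraries were left out.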

How the data were processed

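Per the submitters' processing notes, Salmon 1.5.2 and edgeR 3.34.0 were used, with the builds GRCm39 and mm10 named without a role. The authors deposited RPKM values per gene and library, 1 table of 13430 genes and 16 libraries in 4 groups of 4. Whole reads could not be recovered from them, so depth is unknown and no counting error can be given. Gene symbols, lengths and GC content came from GENCODE M21 (GRCm38), which matched all 13430 genes.

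From these values log2(RPKM + 0.1) was computed for the 12943 genes at 0.5 RPKM or more in at least 4 of the 16 libraries. limma 3.58.1 in R 4.3.3 fitted 4 group means to all 16 libraries (12 residual degrees of freedom, trended robust variances), and p-values were two-sided and Benjamini-Hochberg adjusted over all genes tested, with 0.05 as the threshold. Every adjusted p of a gene comes from this fit. Fold changes on this scale understate those of low genes. The fit was tested on simulated data of 12943 genes for the water comparison. There it recovered 72% of 100 genes changed 2-fold and 50% of 100 changed 1.5-fold, with 3 false calls. The share of false calls among the genes called in the kidney libraries was not tested. A single value over libraries was tested by exact permutation.

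Named genes were Insrr, the 12 highest and 12 lowest called differences on water without overlap of the groups (regular symbols, mean of at least 1 RPKM in the higher group), and of each list the called members with the smallest p, up to 5, the extremes, and any member of lists of up to 14. Others are said to be named after their values were seen. Some genes that this rule picks are not reported here, though list counts include them. The members and the 44 gene lists were chosen with earlier results of these data known. Alternatives were pseudocounts of 0.01 and 1, no filter, a filter of 1 RPKM in 8 libraries, other scalings (median of ratios, quantile, equal sum over genes not mitochondrially encoded), removal of each library's trend on length and GC content by splines of 5 degrees of freedom, only the 8 libraries compared, no trend or robust fitting, array weights, a replicate block and leaving out each library.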

Additional observations from a re-analysis of the deposited data

Results flagged for a closer look

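In groups of 4, a library was marked when its gap to the nearest other library, divided by the group's range, was above Dixon's critical value of 0.829. Of 348 groups tested over the named genes 17 were marked, and chance marks about 1 in 20, so their number is what chance gives.

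Among transport genes, Hmx2 in knockout replicate 1 was at 3.04 RPKM (the other 3 at 3.60 to 3.68), Fxyd2 in wild-type replicate 1 at 363 (413 to 421), Fxyd4 in wild-type replicate 4 at 3.31 (4.59 to 4.76), Nedd4l in knockout replicate 1 at 14.2 (6.44 to 7.28), Slc22a8 in knockout replicate 4 at 234 (259 to 262) and Alpl in wild-type replicate 4 at 386 (247 to 256). Among genes of mitochondria and translation, mt-Cytb in knockout replicate 1 was at 48216 RPKM, and in knockout replicate 4 Uqcrh was at 670.4 and Idh3g at 255. Gatb in knockout replicate 3 was at 15.8 and Cat in the same library at 477. Among immune and clock genes, B2m in knockout replicate 2 was at 804 RPKM, Tapbp in wild-type replicate 2 at 16.4 and Per1 in the same library at 13.4. Hist1h2ap in knockout replicate 2 (1.69), Ube3a in knockout replicate 1 (0.678) and Zfp1 in wild-type replicate 3 (2.07) each stood against 3 libraries listed at 0.

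By the test of the difference between drinks, the genotype difference of Sh3bp5l changed by 1.35 on the log2 scale from water to bicarbonate (adjusted p = 0.0471, limma), and that of Gm5096 by 4.99 (adjusted p = 0.000697), with 12 of its 16 libraries listed at 0.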

How the results depend on the processing

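The number of genes called on water was 2245 to 2566 when single libraries were left out, lowest without wild-type replicate 2, and 2328 to 3410 under the other settings. On bicarbonate it was 1748 to 2243 without single libraries. The interaction count of 2 became 0 with a pseudocount of 0.01 and with the stricter filter, 1 with a pseudocount of 1 and with array weights, 4 after removal of the length and GC trend and without trend or robust fitting, and 1 to 5 without single libraries. Differences in summed RPKM and in the mitochondrial share kept their direction over only the genes passing the filter and without single water libraries. The groups did not overlap in either value, so leaving out 1 library could not turn them. Neither value was computed under another scaling or after removal of the length and GC trend.

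Over 151 named genes called on water and up to 20 settings each, 2790 of 3014 values kept direction and call, 214 kept direction only and 10 turned, all 10 among mitochondrially encoded genes and Gpx3. Under quantile normalization mt-Nd1 was at -0.090, mt-Cytb at -0.040, mt-Co1 at -0.095, mt-Co2 at -0.0086, mt-Co3 at -0.46 and Gpx3 at -0.30, and mt-Nd4l and mt-Atp8 at 0. After removal of the length and GC trend mt-Nd4l was at -0.59 and mt-Atp8 at -0.31. Of 26 named genes not called, 21 of 519 values passed and 8 turned. Without single libraries Slc4a8 was at -0.022 to 0.23, Slc4a1 at -0.14 to 0.16, Slc26a7 at -0.067 to 0.23 and H2-Aa at -0.26 to 0.0024, and Slc4a1 was at -0.078 with equal sums over genes not mitochondrially encoded and -0.015 with array weights. The cause was not tested.

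With the replicate number as a block 2808 genes were called on water (1282 higher, 1526 lower), 2330 on bicarbonate and 2 by the interaction. In the comparison by replicate number, same-numbered libraries had correlations of -0.005 to 0.043 on water and other-numbered ones -0.102 to 0.067. By this measure 2 of 8 correlated best with their own number. These are not correlations of whole library levels, which were 0.956 to 0.964 between genotypes (Spearman). On bicarbonate the ranges were -0.004 to 0.105 and -0.132 to 0.082, and 6 of 8 correlated best with their own number. The main fit took no account of the numbers.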
